A study of Mus musculus with 6 samples.

Results

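TXNIP and the genes ARRDC1 to ARRDC4, which encode 5 alpha-arrestins, and MLXIP, which encodes the glucose-sensing transcription factor MondoA, were described across 6 RNA-seq libraries. The rows of these 6 symbols were taken from the gene tables, which list 17144 genes. The set was chosen by its known family together with the counts of group C and group D, in which the low TXNIP level of D was already known, so the differences between the groups are given for the 6 genes as a description, without a test. All 6 passed the filter on low counts.

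All libraries carry the label SaOS2, which names an established cell line from a human osteosarcoma. The 3 libraries titled C1 to C3 form group C and the 3 titled D1 to D3 form group D. The series title concerns a compound named DDTC(I), and setting D against C asks which transcripts differ between these groups. What the letters stand for, the dose and the time are not stated in the labels. The labels also do not say that the libraries are separate cultures, and each p therefore reflects the spread among these libraries alone, which may be technical.

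Alpha-arrestins are adaptor proteins that carry proline-rich motifs for ubiquitin ligases of the NEDD4 family, and they guide receptors and transporters at the cell surface towards endocytosis and degradation. TXNIP, the best known member, also binds and inhibits thioredoxin, and it limits glucose uptake by promoting the internalization of the glucose transporters GLUT1 and GLUT4. MondoA, with its partner MLX, responds to glucose 6-phosphate and activates transcription of TXNIP and ARRDC4, so that the TXNIP transcript is widely used as a readout of sugar sensing.

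Library totals ranged from 18446443 to 20602771 counts. CPM is the count per library after scaling to one total, and 3 counts equal 0.146 to 0.163 CPM by library totals alone. The CPM values below also carry normalization factors, which this level leaves out. Of 12682 tested genes, 54.4% passed an adjusted p of 0.05 in edgeR's quasi-likelihood test, 26.8% higher and 27.7% lower in D, and the median log2 fold change was −0.02. Of the calls, 49.2% were higher, and 36.8% with library size only, a scaling in which the median was −0.17. The symbols follow human naming although the labels name the mouse. Of the defining osteoblast markers, ALPL had 8 to 15 counts per library, SP7 at most 1, and BGLAP and IBSP at most 2, so these markers were at or near 0 and did not bear out a bone identity of the cells. The 10 osteoblast markers summed to 220 to 278 CPM in C and 89.1 to 99.8 CPM in D, and 7 epithelial markers to 83.9 to 93.4 CPM in C and 125 to 161 CPM in D. The epithelial marker EPCAM had 2 to 7 counts and the leukocyte marker PTPRC 2 to 8. The part of these markers in the results below was not tested.

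TXNIP was about 9 times lower in D and had the 15th lowest log2 fold change of the tested genes. Its normalized level was 733, 587 and 415 CPM in C replicates 1, 2 and 3 and 72.3, 56.0 and 63.5 CPM in D replicates 1, 2 and 3. The groups were far apart, and the lowest C library held 5.74 times the level of the highest D library. The means were 578 ± 159 and 63.9 ± 8.20 CPM (SD, n = 3), and the log2 fold change was −3.18 ± 0.22 (SE). The libraries held 8757 to 14298 TXNIP counts in C and 1075 to 1282 in D. In such bulk samples fewer cells with the transcript and less of it per cell cannot be told apart.

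TXNIP also varied within group C. Its standard deviation of log2 CPM there was 0.41, larger than in 96.4% of tested genes, and the highest C library exceeded the lowest 1.77-fold. In D the standard deviation was 0.19, larger than in 40.8% of tested genes. ARRDC3 shared this wide spread in C, at 0.33, above 93.7% of tested genes, and both genes were highest in C1 and lowest in C3. The size of the TXNIP difference followed the C library left out, from −3.37 without C replicate 3 to −2.98 without C replicate 1.

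ARRDC4, the alpha-arrestin closest to TXNIP in its known control by MondoA, had the lowest level of the 6 genes and a much smaller difference. It stood at 5.74, 5.96 and 5.02 CPM in C and at 3.27, 5.10 and 3.35 CPM in D, from 58 to 129 counts per library. D1 and D3 lay below every C library, whereas D2 lay between C3 and C1, so the groups overlapped. The log2 fold change was −0.51 ± 0.20, and −0.72 without D replicate 2. The ratio of TXNIP to ARRDC4 in FPKM (counts scaled to the library total and to gene length) was 132 ± 29.2 in C and 22.2 ± 7.35 in D.

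ARRDC2, one of the less studied members, was the one alpha-arrestin with a higher level in D. Its values were 22.6, 23.4 and 21.5 CPM in C and 51.0, 47.3 and 54.5 CPM in D. The libraries within each group lay close together and the groups were far apart. The log2 fold change was 1.18 ± 0.11, a 2.26-fold difference.

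ARRDC1, a plasma membrane alpha-arrestin that recruits the ESCRT protein TSG101 to bud small vesicles, was lower in D. It measured 34.9, 33.7 and 33.7 CPM in C, where it hardly varied, and 19.1, 18.1 and 24.5 CPM in D. The groups did not overlap, and D3 was the D library nearest to C. The log2 fold change was −0.73 ± 0.14.

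ARRDC3, which is known to act on integrin beta-4, overlapped between the groups. It measured 60.0, 53.8 and 38.7 CPM in C and 41.9, 50.3 and 38.8 CPM in D. The lowest C library fell just below all D libraries. The log2 fold change was −0.22 ± 0.18, and it ranged from −0.39 without C replicate 3 to −0.09 without C replicate 1.

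MLXIP, which encodes MondoA itself, also overlapped between the groups. Its values were 38.1, 35.5 and 40.0 CPM in C and 45.0, 51.5 and 35.7 CPM in D. D2 was the highest and D3 near the lowest of all 6 libraries, so the D libraries lay on both sides of C1 and C3. The log2 fold change was 0.22 ± 0.15, in the opposite direction to that of TXNIP.

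Of the 6 genes, 3 had groups that did not overlap (TXNIP, ARRDC1 and ARRDC2), against 62.7% of all tested genes, and the same 3 passed the threshold that 54.4% of all tested genes passed. As the contrast chose the set, nothing is read from these counts.

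**Figure D1:**
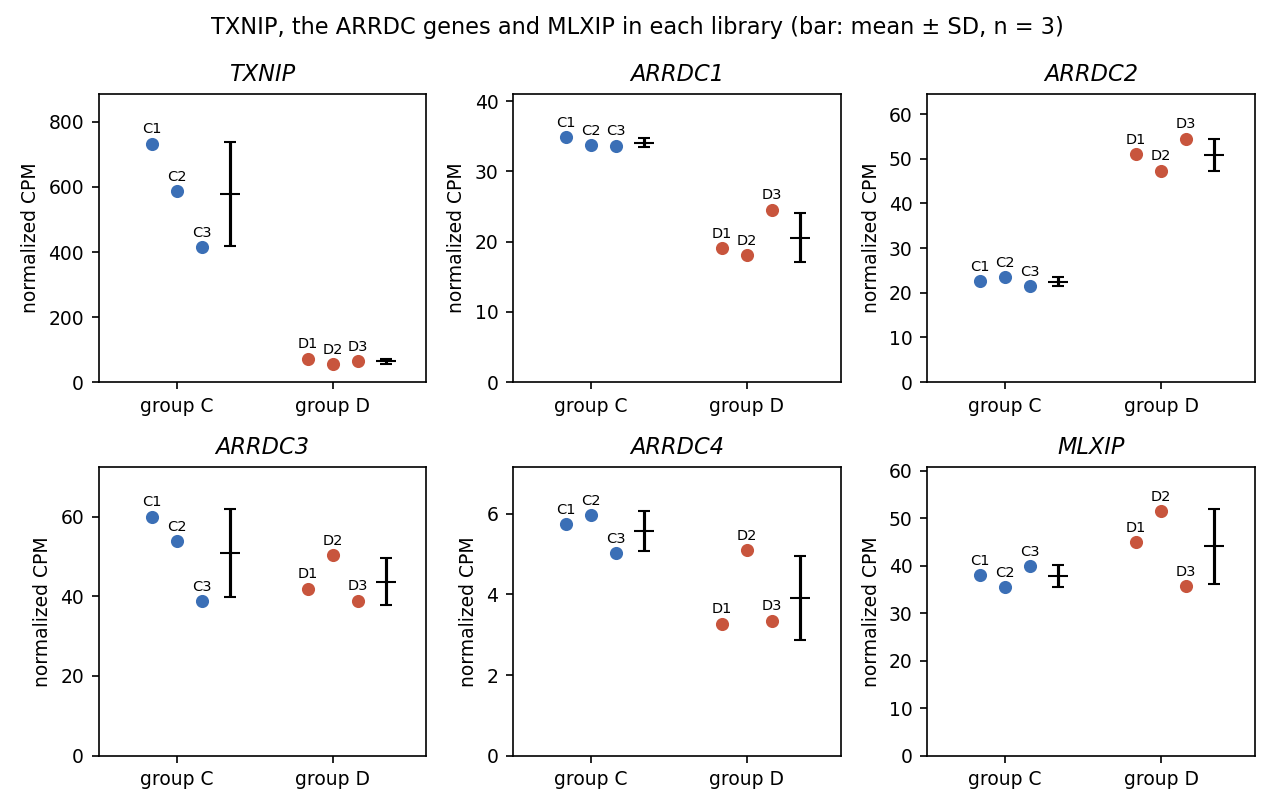
Normalized CPM (vertical axes, each from 0) of the 6 genes in the 3 libraries of group C (blue) and the 3 of group D (red), with black bars for mean ± SD. TXNIP drops from 415 to 733 CPM in C to 56.0 to 72.3 CPM in D, ARRDC2 is higher in every D library, and ARRDC3, ARRDC4 and MLXIP overlap between the groups.

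Compared per length, TXNIP dominated the alpha-arrestins in C and was close to ARRDC2 in D. In C the deposited FPKM of TXNIP was 192 ± 52.4, followed by ARRDC3 at 10.95 ± 2.33, ARRDC1 at 8.47 ± 0.163, ARRDC2 at 8.03 ± 0.322, MLXIP at 4.59 ± 0.291 and ARRDC4 at 1.45 ± 0.122. ARRDC3 and ARRDC1 were not separated beyond their spread and changed places in C3, and ARRDC1 exceeded ARRDC2 by only 0.010 FPKM in C2 (8.35 against 8.34).

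In D the order of the FPKM means was TXNIP at 19.1 ± 2.495, ARRDC2 at 16.3 ± 0.699, ARRDC3 at 8.49 ± 1.38, MLXIP at 4.83 ± 1.01, ARRDC1 at 4.58 ± 0.621 and ARRDC4 at 0.9155 ± 0.2625. TXNIP stood above ARRDC2 in each D library, but by 1.42 to 5.31 FPKM only, and the ranges of mean ± SD met. MLXIP and ARRDC1 were not separated either. Among all 17144 genes TXNIP ranked 216, 297 and 414 by FPKM in C1, C2 and C3, and 2712, 3270 and 3066 in D1, D2 and D3.

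The 5 alpha-arrestins together summed to 221 ± 55.1 FPKM in C and 49.4 ± 2.08 FPKM in D. TXNIP made up 84.3% to 88.7% of that sum in C and 35.7% to 42.3% in D, while the ARRDC2 share was 2.94% to 4.69% in C and 32.0% to 34.8% in D. Without TXNIP the sum of the other 4 was 28.9 ± 2.77 FPKM in C and 30.3 ± 0.503 FPKM in D. On this scale the difference was smaller than the spread in C. As TMM-normalized CPM per kilobase, each of the 4 was lower in C and higher in D than in FPKM. The closeness of the 2 sums thus depends on the scaling. The makeup of the sum differed as well, since the ratio of ARRDC2 to ARRDC1 was 0.948 ± 0.0444 in C and 3.60 ± 0.353 in D.

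**Figure D2:**
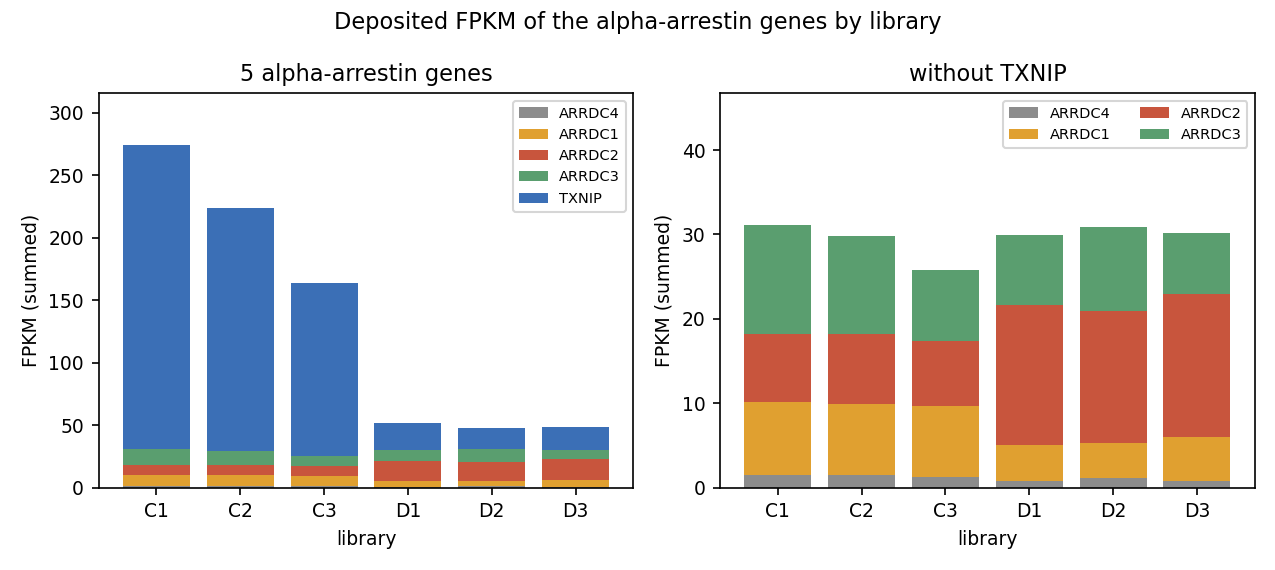
Deposited FPKM of the alpha-arrestin genes, stacked by gene (vertical axes from 0), in each of the 6 libraries, with TXNIP on the left and without it on the right. TXNIP fills most of each C bar and falls to 35.7% to 42.3% of the D bars. The other 4 sum to a similar height in both groups on the FPKM scale, with more ARRDC2 and less ARRDC1 in D.

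The 6 genes kept the sign of their difference under all 18 alternative analyses, in which scaling, filters, tools, the unit and the libraries were changed. TXNIP ranged from −3.37 to −2.98, ARRDC1 from −0.89 to −0.61, ARRDC2 from 0.94 to 1.26, ARRDC3 from −0.39 to −0.09 and ARRDC4 from −0.72 to −0.36 on the log2 scale. MLXIP had the widest range relative to its size, from 0.05 on log2(FPKM + 1) to 0.43 with the trend of each library along gene length removed.

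**Figure D3:**
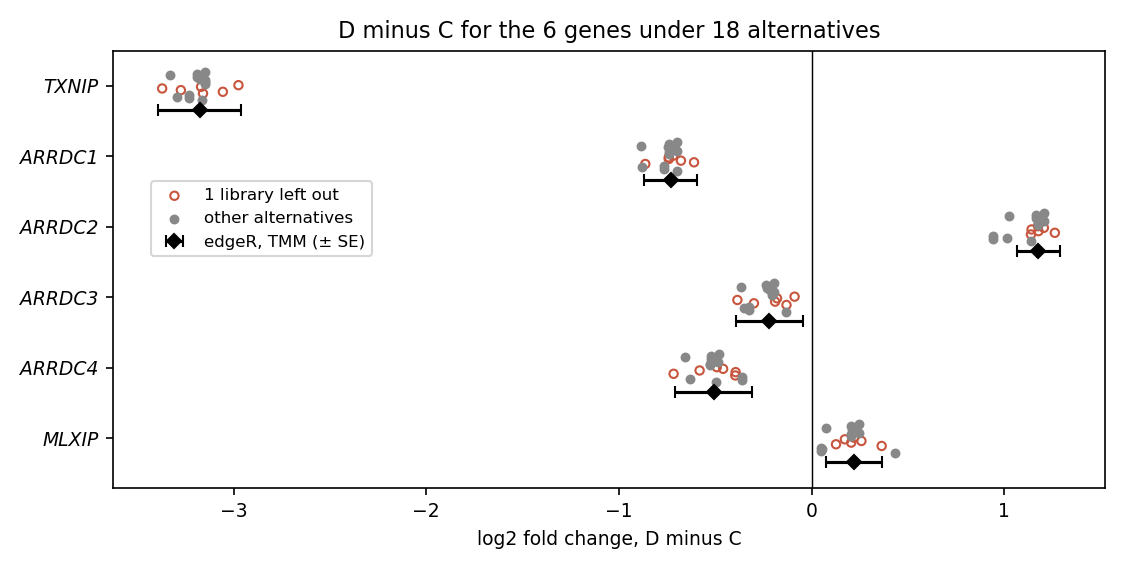
Log2 fold change (D minus C, horizontal axis) of the 6 genes, with black diamonds for the edgeR estimate ± SE, open red circles for analyses with 1 library left out and grey points for the other alternatives. No point crosses 0 for any of the 6 genes, and ARRDC3 and MLXIP lie nearest to it.

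The libraries of group D differed along gene length, and the spread of MLXIP and ARRDC2 in D was much smaller once this was removed. The slope of log2 CPM on log2 length, as deviation from the group mean, was 0.01, 0.17 and −0.18 in D1, D2 and D3. Over all tested genes, the median difference of D2 from D3 ran from −0.60 in the shortest of 12 length classes (median 1073 bp) to 0.69 in the longest (12940 bp).

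MLXIP, at 8683 bp the longest of the 6, differed by 0.53 between D2 and D3, and by 0.07 once the trend was removed. Its standard deviation of log2 CPM in D went from 0.27 to 0.05, and its D minus C difference from 0.22 in edgeR to 0.43 in the limma analysis with the trend removed. For ARRDC2 (2951 bp) the standard deviation in D went from 0.10 to 0.01. Smaller shifts were from 0.191 to 0.132 for ARRDC3, from 0.185 to 0.168 for TXNIP and, upwards, from 0.234 to 0.25 for ARRDC1. For ARRDC4 (4062 bp) and ARRDC1 (4238 bp) the differences of D2 from D3 were 0.59 and −0.44, and they were 0.59 and −0.47 with the trend removed. These 2 genes of similar length thus departed from the trend in opposite directions, and the high ARRDC4 value in D2 was as large without it. The spread of TXNIP in C was 0.41 with and without the trend.

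**Figure D4:**
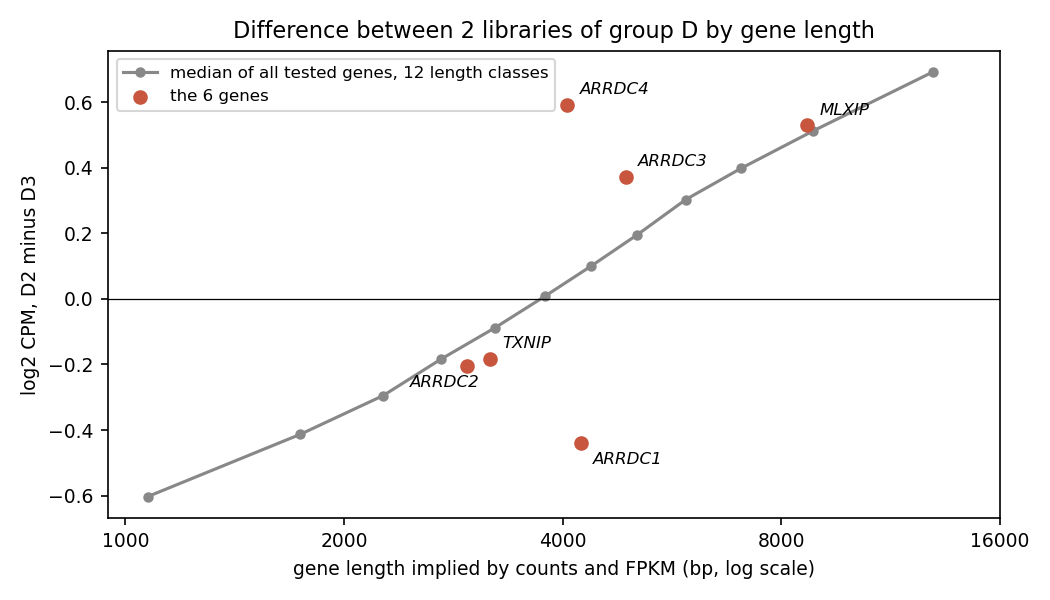
Difference in log2 CPM between D replicates 2 and 3 (vertical axis) against the gene length implied by counts and FPKM (horizontal, log scale), for the 6 genes (red) and as the median of all tested genes in 12 length classes (grey). MLXIP, ARRDC2 and TXNIP lie on or near the grey line, and ARRDC4 and ARRDC1 lie farthest from it, above and below.

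The genes most like TXNIP over the 6 libraries were CYP24A1, KIF20A, TNFAIP8L1, CCNF and PSRC1, by the root mean square difference of log2 CPM centred on each gene's mean, among 9451 other genes whose mean log2 CPM reached 3. That measure was 0.10 for CYP24A1, which encodes a vitamin D hydroxylase, and 0.23 to 0.28 for the next 4. CYP24A1 measured 37.7, 30.9 and 26.1 CPM in C1, C2 and C3 and 4.01, 3.12 and 3.24 CPM in D1, D2 and D3. It shared with TXNIP the size of the difference and the order within C, as a gene chosen for such likeness. TNFAIP8L1 (29.1, 25.9 and 21.8 CPM) and CCNF (102.8, 97.1 and 94.4 CPM) had the same order in C1, C2 and C3. The mitotic kinesin gene KIF20A, at 279, 258 and 259 CPM in C, had the same size of difference but varied little within C.

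For ARRDC2, the member with the largest positive difference, the most like genes were HPS1, GHITM, PANX2, CARS1 and TMEM87A, with measures of 0.03 to 0.05. HPS1, which encodes a protein of lysosome-related organelle formation, measured 20.4, 22.0 and 19.0 CPM in C and 46.6, 43.1 and 49.7 CPM in D. CARS1, the cysteinyl-tRNA synthetase gene, had a log2 fold change of 1.10. Likeness over 6 libraries in 2 groups rests mainly on the difference between the groups.

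Other genes of the pathway were followed in 10 lists with 98 tested genes, of which 37 rose and 31 fell in D and 30 did not pass the edgeR test. These are 37.8% and 31.6%, against 26.8% and 27.7% of all tested genes. The lists were chosen with earlier results of these data known, so the shares here and below are a description only. Values below are log2 fold changes ± SE, and the adjusted p of each gene said to rise or fall was under the threshold of 0.05 in that test.

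**Figure D5:**
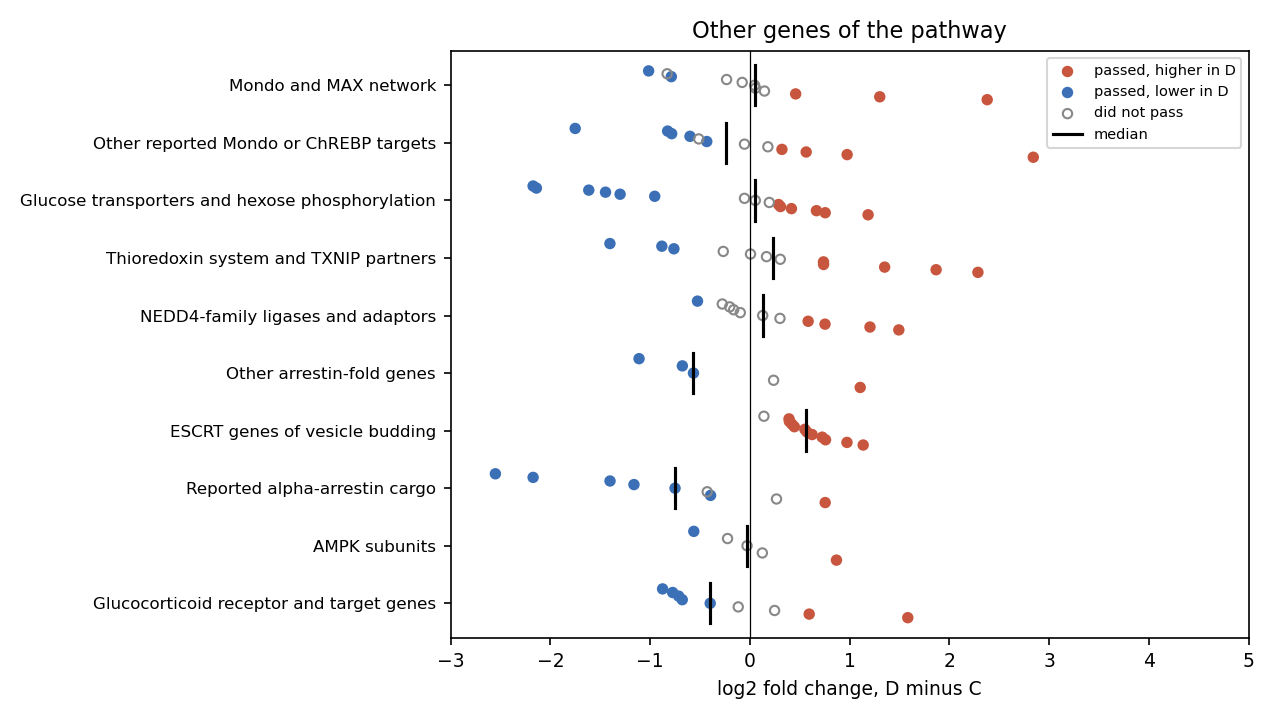
Log2 fold change (D minus C, horizontal axis) of each tested gene in the 10 lists, filled where the gene passed the edgeR test and open where it did not, with a black line for the median of the list. The ESCRT genes all lie above 0 with a median of 0.56, the reported cargo genes have a median of −0.75, and the other lists hold genes on both sides.

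Partners and competitors of MondoA moved unequally. MLX, the obligate partner of MondoA, measured 49.7 ± 1.78 CPM in C and 51.6 ± 3.23 CPM in D (0.05 ± 0.10) and did not pass the test, while MLXIPL, which encodes the related factor ChREBP, had too few counts to be tested (0 to 4 per library). Of the 11 tested genes of this network, 3 rose (27.3%) and 2 fell (18.2%), against 26.8% and 27.7% of all tested genes. The median was 0.05. MXD1, a MAX-binding repressor, rose from 9.17 ± 1.25 to 47.7 ± 7.11 CPM (2.38 ± 0.16), and MAX, the shared partner of the MYC and MXD proteins, rose by 1.30 ± 0.13. USF2, another E-box binding factor, rose by 0.46 ± 0.11. MXD3 (−1.02 ± 0.21) and MXD4 (−0.79 ± 0.12) fell. On the FPKM scale with a filter, 4 genes of this network fell.

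Other reported targets of MondoA or ChREBP went both ways. Of 12 tested, 4 rose (33.3%) and 5 fell (41.7%), with a median of −0.24, against 26.8% and 27.7% of all tested genes. The 3 falls with the lowest p were in genes of fatty acid synthesis: the elongase ELOVL6 fell from 64.3 ± 2.85 to 19.1 ± 1.92 CPM (−1.75 ± 0.12), the desaturase SCD by 0.83 and the synthase FASN by 0.60. Among the rises, RGS16, a regulator of G-protein signalling, went from 0.338 ± 0.0465 to 2.455 ± 0.0381 CPM (2.84 ± 0.23). It had 6 to 8 counts per library in C and 43 to 48 in D. RGS16 thus passed the filter on low counts through its D libraries, and nothing is read from its rise. The 4 rises include it. KLF10, a zinc finger repressor, rose by 0.97 ± 0.14 and PFKFB3, which makes an activator of glycolysis, by 0.56 ± 0.12. Hexokinase 2 (HK2), also reported as a target, had a log2 fold change of −0.06 ± 0.16 and did not pass. On the FPKM scale with a filter, 2 of these targets rose.

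Glucose transporters and hexose-phosphorylating enzymes went both ways, with 6 of 15 tested genes rising and 6 falling (40% each, median 0.05). Among all tested genes 26.8% rose and 27.7% fell. SLC2A1, which encodes GLUT1, the transporter that TXNIP helps to internalize, measured 63.7, 68.4 and 62.6 CPM in C and 124.8, 101.3 and 102.2 CPM in D. The groups did not overlap, and the gene rose by 0.75 ± 0.12. SLC2A4, which encodes GLUT4, fell by 2.17 ± 0.38, from 15 to 20 counts per library in C to 2 to 5 in D. It thus passed the filter on low counts through its C libraries, and nothing is read from its fall. The hexokinase-like gene HKDC1 rose by 1.18 ± 0.11 and the glucose 6-phosphatase gene G6PC3 by 0.67 ± 0.15. SLC2A12 (−2.14 ± 0.26), SLC2A10 (−1.30 ± 0.19) and the fructokinase gene KHK (−1.62 ± 0.18) fell. The number that rose was 3 without C replicate 2, C replicate 3 or D replicate 1, with library size only and on each FPKM scale. The number that fell was 2 on the FPKM scale with a filter.

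Genes of the thioredoxin system and other known partners of TXNIP went both ways. Of 12 tested, 5 rose (41.7%) and 3 fell (25%), with a median of 0.24, against 26.8% and 27.7% of all tested genes. TXNRD1, the cytosolic thioredoxin reductase, rose from 416 ± 20.9 to 1060 ± 103 CPM (1.35 ± 0.11), and the thioredoxin-like gene TXNL1 by 1.87 ± 0.14. DDIT4, whose protein REDD1 forms a complex with TXNIP, rose from 82.1 ± 15.1 to 400.1 ± 37.4 CPM (2.29 ± 0.16). Thioredoxin itself (TXN) was also among the rising genes, at 0.74 ± 0.18. KPNA2, an importin that carries TXNIP into the nucleus, fell from 775 ± 27.3 to 293 ± 33.1 CPM (−1.40 ± 0.11). TXNRD3 (−0.88 ± 0.13) and the kinase gene MAP3K5, whose protein ASK1 is held by thioredoxin, fell as well (−0.76 ± 0.19). NLRP3, the inflammasome sensor that TXNIP can bind, was at 3.07 ± 0.322 CPM in C and 3.08 ± 0.310 CPM in D and did not pass.

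The ubiquitin ligases that alpha-arrestins recruit changed in part. Of 11 tested NEDD4-family ligases and adaptors, 4 rose (36.4%) and 1 fell (9.09%), against 26.8% and 27.7% of all tested genes. The median was 0.13. HECW2 (1.49 ± 0.18), HECW1 (1.20 ± 0.15) and WWP2 (0.58 ± 0.14) rose. ITCH, the ligase known to degrade TXNIP, had a log2 fold change of −0.28 ± 0.13 and did not pass. WWP1 fell by 0.53, but its call was lost without C replicate 1, 2 or 3 and without D replicate 1 (adjusted p of 0.0538 to 0.0755, edgeR), and without D replicate 2 there were 2 falls. With library size only or on the FPKM scale with a filter 3 ligases or adaptors fell, and on log2(FPKM + 1) without a filter 2 rose and 2 fell.

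Proteins with the same fold went both ways as well. Of 5 tested arrestin-fold genes outside the set, 1 rose (20%) and 3 fell (60%), against 26.8% and 27.7% of all tested genes (list median −0.57). The beta-arrestin genes ARRB1, from 98.1 ± 2.35 to 45.4 ± 4.90 CPM (−1.11 ± 0.11), and ARRB2 (−0.57 ± 0.12) fell. Of the retromer subunits, which share the arrestin fold, VPS26A rose by 1.10 ± 0.12 and VPS26B fell by 0.68. Without D replicate 3 and in DESeq2, 2 of these genes rose. ARRDC5 and ARR3 were not among the listed symbols.

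ESCRT genes, which sort ubiquitinated cargo and take part in vesicle budding with ARRDC1, rose together. Of 12 tested, 11 rose (91.7%) and 0 fell, with a median of 0.56, against 26.8% and 27.7% of all tested genes. None fell at an unadjusted p under 0.05 in edgeR either, since all fold changes were positive, and 0 fell in each of 18 alternatives, in which 8 to 12 rose. HGS, the ubiquitin-binding subunit that receives cargo, rose from 86.7 ± 3.07 to 190.3 ± 13.2 CPM (1.13 ± 0.10), VPS4B, an ATPase that recycles the complex, by 0.97 ± 0.10 and VPS37B by 0.76 ± 0.10. TSG101, the subunit that ARRDC1 binds, rose from 100.1 ± 1.52 to 136 ± 19.8 CPM (0.44 ± 0.12).

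Of 9 tested genes for reported cargo of alpha-arrestins, 6 fell (66.7%) and 1, SLC2A1, rose (11.1%), with a median of −0.75. Among all tested genes 27.7% fell and 26.8% rose. The insulin receptor gene INSR fell from 30.2 ± 1.91 to 11.4 ± 3.21 CPM (−1.40 ± 0.19), and F2R, the thrombin receptor gene, by 1.16. Without D replicate 3 and with the length trend removed, 2 rose. Without 1 library, between 4 and 6 fell. The falls include SLC2A4, which passed the filter on low counts through its C libraries.

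Regulators that act on TXNIP or ARRDC2 through other routes gave no common direction. Of 5 tested subunits of AMPK, the energy-sensing kinase known to trigger TXNIP degradation, PRKAB1 rose by 0.87 ± 0.11 and PRKAG2 fell by 0.56. Each is 20% of the list, against 26.8% and 27.7% of all tested genes. The fall of PRKAG2 was not called with the length trend removed (−0.34), and without D replicate 2 there were 2 falls. The glucocorticoid receptor and its targets belong to a hormone route known to induce TXNIP and ARRDC2 in several tissues. Of 9 tested genes of this list, 2 rose (22.2%) and 5 fell (55.6%), against 26.8% and 27.7% of all tested genes (list median −0.40). DUSP1, a MAP kinase phosphatase, rose by 1.58 ± 0.12, and PER1 (−0.88 ± 0.17), FKBP5 (−0.68 ± 0.13) and CRISPLD2 (−0.71 ± 0.16) fell. The rise of TSC22D3 (0.59 ± 0.19) was lost without C replicate 2, C replicate 3 or D replicate 1, with library size only and on each FPKM scale, which left 1 rise.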

How the data were processed

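RNA-seq of 6 libraries was used, 3 titled C and 3 titled D. The authors deposited whole-number gene counts without normalization and FPKM values for the same 17144 symbols. Dividing counts by library totals and deposited FPKM gave 1 length per gene, the same in all 6 libraries within a relative tolerance of 0.001, for 17144 genes, and these lengths were used here. Per the submitters' processing notes the builds were GRCm38 and mm10. Neither aligner, counter nor strandedness is given in the sources used here. The supplied reference is mouse and the symbols are human, so no coordinates or sequences are printed.

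Counts were fitted in R 4.3.3 with edgeR 4.0.16 (filterByExpr, TMM factors, quasi-likelihood F test, 2-sided, group as the only term, Benjamini-Hochberg adjustment over 12682 genes, threshold 0.05). The filter kept 99.952% of counts. The SE is the log2 fold change divided by the square root of F. Per-library values are TMM-normalized CPM, and deposited FPKM were used to compare genes. Log2 CPM used a prior count of 2. Fits by edgeR, DESeq2, limma-voom and with the length trend removed were tried on simulated data with a small set of changed genes. The simulation used the same dispersion for all genes and no length trend, unlike these libraries. Nothing about the present results is read from it. Floors cover counting error only.

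The 6 genes and the lists were chosen with earlier results of these data known. Named from each of 10 lists were up to 3 passing genes per direction with the lowest p, or the lowest-p gene where none passed, the 5 genes most like TXNIP and ARRDC2, and line markers. One named gene is not reported here. TXN, TSG101, MLX, MLXIPL, HK2, SLC2A4, NLRP3, ITCH and the markers SP7, BGLAP, IBSP, EPCAM and PTPRC were added for their roles after their values were seen. Alternatives were factors by RLE, by upper quartile or by library size only, no filter or 1 CPM in 3 libraries, DESeq2 1.42.0, limma-voom (limma 3.58.1), a replicate block, each library left out, limma-trend on log2 of FPKM with 0.1 or 1 added, filtered at FPKM above 1 in at least 3 libraries or, with 1 added, unfiltered, and removal of length trends (lowess, span 0.4). Libraries of a group differed by more than sampling noise (chi-square per degree of freedom 6.21 to 90.5).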

Additional observations from a re-analysis of the deposited data

How the results depend on the processing

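The differences of the 6 genes kept their sign under all 18 alternatives. ARRDC2 moved by more than its spread between libraries with library size only (1.02), on log2(FPKM + 0.1) (1.02) and on log2(FPKM + 1) with and without the filter (0.94 in both), and MLXIP moved with the length trend removed (0.43). ARRDC4 passed the threshold, as lower, in 8 of 18 alternatives and MLXIP, as higher, in 2. The alternatives share the same libraries and the set was chosen with this contrast known, so nothing is read from these calls. The number of genes called higher was 2209 on log2(FPKM + 0.1) and 2213 on log2(FPKM + 1), both filtered, against 3393. These filtered FPKM fits tested 10563 genes, against 12682 in the main fit, so part of the lower number goes with fewer genes tested. With 1 library left out it was 2627 to 3888 higher and 2780 to 3879 lower, and for the pathway genes 30 to 40 higher and 26 to 34 lower. As TMM-normalized CPM per kilobase in place of FPKM, ARRDC1 and ARRDC2 in C were 8.04 and 7.62 and ARRDC2 in D was 17.3, with the same order of the 6 means in both groups. The cause of these shifts was not tested. The replicate numbers did not pair the libraries: deviations of same-numbered libraries correlated at 0.00838, −0.397 and −0.365, and 0 of 6 libraries correlated best with its own number. With the replicate block, 2694 genes were called higher and 2977 lower, 3 glucose transporter and hexose enzyme genes rose in place of 6, and 1 glucocorticoid gene in place of 2, as TSC22D3 (0.61) was not called (adjusted p = 0.0557, edgeR). ARRDC4, at 58 to 129 counts, had the lowest depth of the 6 genes. Its SE of 0.20 was below that of TXNIP (0.22), and the part of depth in these values was not tested.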
